A study of Mus musculus with 5 samples.

Results

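The genes described here are 40 components of the DNA replication machinery, taken as a listed set of gene symbols out of 39179 genes measured in erythroid cells of mice. They fall into 9 roles, from proteins that mark replication origins to those that package the new DNA. The cells were purified with magnetic beads against CD71, the transferrin receptor, which erythroid precursors carry at high levels, and polyA RNA was sequenced in 5 libraries. The tumor group was 2 spleen libraries of mice that carried tumors of B16, a mouse melanoma line given by injection beneath the skin. The UVB group was 2 spleen libraries of mice whose skin received ultraviolet B light at 50 mJ/cm2. The control was 1 library from the bone marrow of untreated mice. The strain label read C57BL/7 for tumor 1, C57BL/8 for tumor 2 and C57BL/6 for both UVB libraries and the control. These labels count up by library and may be an entry slip, so no difference of strain is taken from them. The labels hold no spleen of untreated mice, and each comparison against the control therefore changes organ and treatment at once. They also do not say whether a group's libraries represent different animals, so p-values here reflect the spread among these libraries, which could be technical only.

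DNA replication starts at origins, where the origin recognition complex, Cdc6 and Cdt1 load the ring-shaped MCM2-7 helicase onto DNA before S phase. The kinase Cdc7 with its partner Dbf4, together with Mcm10, Cdc45 and the GINS complex, turns the loaded ring into an active helicase. Polymerase alpha-primase then starts each new strand, polymerases delta and epsilon extend it on the sliding clamp Pcna, and Fen1 and Lig1 join the lagging-strand pieces. Many of these genes are targets of E2F transcription factors, which turn them on at the passage from G1 into S phase. Erythroid precursors divide several times before they leave the cell cycle, and spleen erythropoiesis expands in mice under stress.

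The letters of the promoters are shown first, because many of these genes share the same short sequence beside their start. RefSeq promoter windows of 300 bases on GRCm38.p6, from 250 bases before to 50 after each start, matched 33 of the 40 symbols. Mcm4, Gins1, Gins2, Gins4, Prim2, Pole and Rfc2 had none. The E2F spellings searched on both strands were TTTCCCGC, TTTCGCGC, TTTGCCGC and TTTGGCGC. At least 1 of them stood in the windows of 13 of the 33 genes (39.4%), against 704 of the 27025 symbols with a window (2.6%). Orc1, Cdc6 and Cdt1 belong to the group that loads the helicase, and stretches of 60 bases around their spellings are printed 5′ to 3′ on the gene's strand, with the E2F spellings in capitals.
Orc1 (chr4:108579401-108579460, plus strand): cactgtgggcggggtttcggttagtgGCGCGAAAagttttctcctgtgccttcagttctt
Cdc6 (chr11:98907987-98908046, plus strand): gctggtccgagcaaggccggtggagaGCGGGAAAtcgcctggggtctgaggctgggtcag
Cdt1 (chr8:122568005-122568064, plus strand): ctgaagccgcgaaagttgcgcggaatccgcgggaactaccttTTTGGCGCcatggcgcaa

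Of the 6 subunits of the MCM2-7 ring, the 4 below held a spelling, and in Mcm5 and Mcm6 a pair of spellings on opposite strands overlapped in a single run of capitals.
Mcm3 (chr1:20820263-20820322, minus strand): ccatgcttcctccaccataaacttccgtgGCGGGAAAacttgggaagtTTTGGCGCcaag
Mcm5 (chr8:75109330-75109389, plus strand): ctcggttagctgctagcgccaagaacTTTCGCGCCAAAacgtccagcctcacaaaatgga
Mcm6 (chr1:128359782-128359841, minus strand): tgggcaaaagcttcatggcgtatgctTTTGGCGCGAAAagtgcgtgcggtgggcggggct
Mcm7 (chr5:138172015-138172074, minus strand): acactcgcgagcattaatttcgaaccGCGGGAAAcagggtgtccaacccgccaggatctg

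The other 6 windows belong to Gins3 of the GINS complex, to the polymerase subunits Pola1, Pold1 and Pole2, to the clamp loader subunit Rfc3, and to the DNA ligase Lig1. In Rfc3 a pair of spellings lay 2 bases apart.
Gins3 (chr8:95633492-95633551, plus strand): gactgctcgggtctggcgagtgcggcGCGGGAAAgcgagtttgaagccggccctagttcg
Pola1 (chrX:93632260-93632319, minus strand): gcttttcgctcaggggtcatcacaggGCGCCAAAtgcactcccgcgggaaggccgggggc
Pold1 (chr7:44548766-44548825, minus strand): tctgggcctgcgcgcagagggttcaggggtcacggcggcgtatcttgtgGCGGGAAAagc
Pole2 (chr12:69228147-69228206, minus strand): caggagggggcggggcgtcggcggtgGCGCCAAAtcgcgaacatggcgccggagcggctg
Rfc3 (chr5:151651185-151651244, minus strand): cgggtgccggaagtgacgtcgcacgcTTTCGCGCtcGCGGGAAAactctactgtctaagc
Lig1 (chr7:13278816-13278875, plus strand): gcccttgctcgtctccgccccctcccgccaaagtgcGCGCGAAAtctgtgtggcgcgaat

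A looser search with the 7 final letters of each spelling, which holds every match of the full one, found 22 of the 33 genes (66.7%), against 10.9% of all symbols. The CCAAT box stood in 21 of 33 windows (63.6%), against 41.1% of all symbols. The cell cycle homology region, spelled TTTGAA or else TTCGAA, stood in 9 (27.3%, against 21.7%). AGATAA, the spelling used for the erythroid factor Gata1, stood in 2 (6.06%, against 12.7%). In 34 of the 40 windows of these genes, which include alternative starts, a stretch just after the start lay in an annotated transcript of the gene. A match in a window is a description of its letters and does not show that a factor bound there. The full E2F spelling was found in 5 of 14 genes that passed the test of tumor against UVB described next, and in 8 of the 19 others with a window.

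Expression was read in counts per 1000000 reads (CPM), as deposited. The libraries held 5003923 to 5921270 reads in genes, so that 1 read was worth 0.168 to 0.198 CPM. All 40 genes were detected in every library and passed the filter of a mean of 1 CPM, with no fewer than 41 reads in any library. Their mean level over the 5 libraries ran from 11.1 CPM for Fen1 to 347 CPM for Mcm2, with a median of 121.5 CPM, not adjusted for length. The summed level of the 40 genes was 7618 CPM in tumor 1, 6392 CPM in tumor 2, 4693 CPM in UVB 1, 4715 CPM in UVB 2 and 6051 CPM in the control. Both tumor libraries stood above the control and both UVB libraries below it. In these bulk samples a smaller share of cells in S phase, less RNA per cell and a different mix of cells cannot be told apart.

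The plot of each gene in each spleen library shows how the levels fell on the 2 sides of the bone marrow control. For each gene the log2 ratio to the control was taken on log2(CPM + 1), and the median over the 40 genes was 0.34 in tumor 1, 0.07 in tumor 2, -0.33 in UVB 1 and -0.35 in UVB 2. Both tumor libraries lay above the control and both UVB libraries below it for 27 of 40 genes, against 20.4% of the 15006 genes tested. Among the 10130 tested genes at or above the lowest mean level of the 40, the share was 26.1%.

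**Figure D1:**
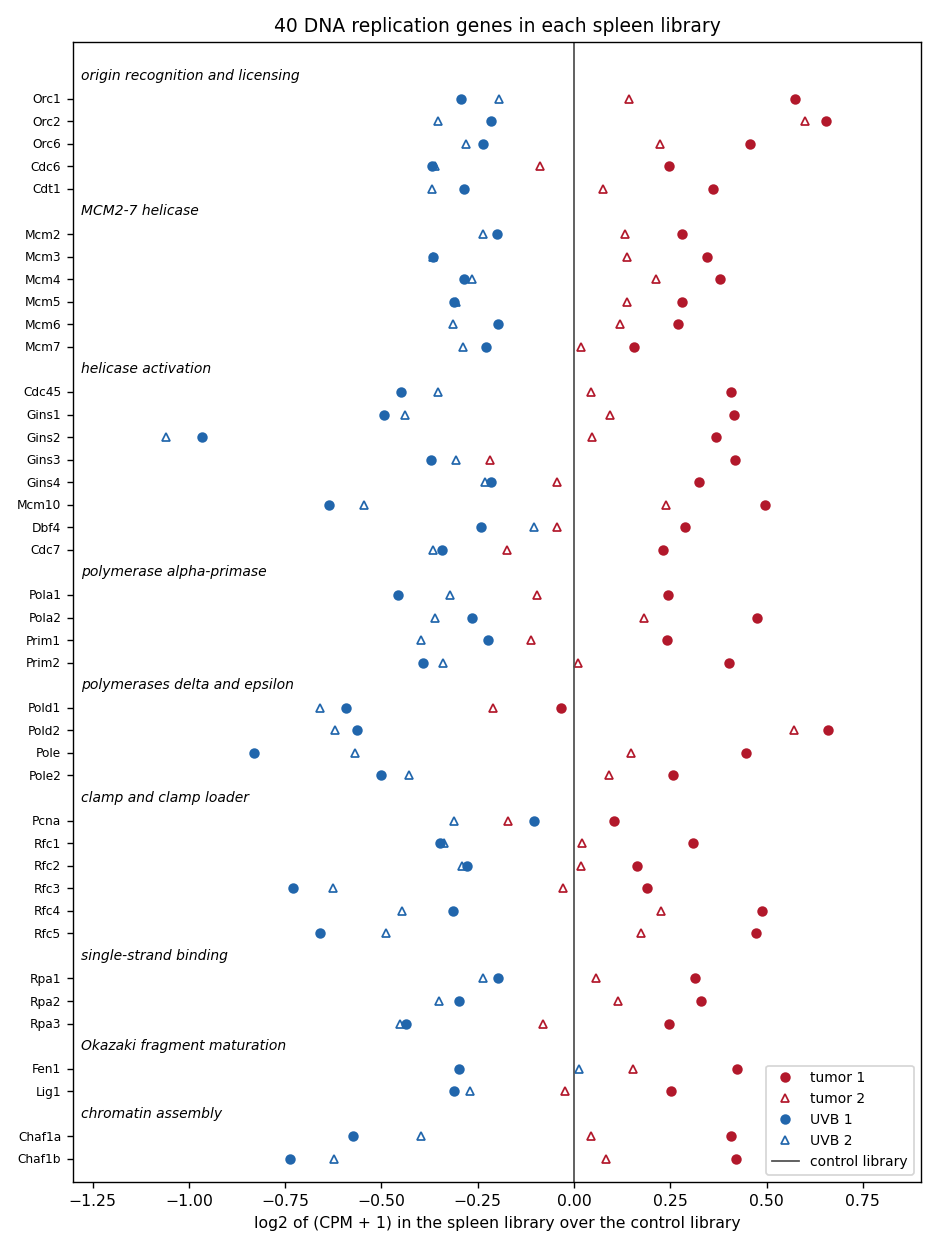
Each of the 40 genes is 1 row, grouped by role, and the x axis is the log2 of CPM + 1 in a spleen library over that in the control library, with circles and triangles for replicates 1 and 2. Blue UVB symbols lie left of the control line except UVB 2 of Fen1, and the red tumor 1 circles lie right of it except for Pold1, while the tumor 2 triangles lie nearer to the line than the tumor 1 circles in all rows except Pold1 and Pcna.

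Tumor spleen was compared with UVB spleen first, because both groups are spleen and each has 2 libraries. The fit was limma on log2(CPM + 1) over all tested genes, with Benjamini-Hochberg adjustment, and genes with an adjusted p under 0.05 are said to have passed. Replication genes were higher in tumor spleen: 18 of 40 passed as higher and 0 as lower, against 12.3% and 4.7% of the 15006 genes tested. Among genes at or above the lowest mean level of the 40, 16.5% passed as higher. At an unadjusted p under 0.05 the count was 33, against 42.2% of all genes tested. The log2 fold change was above 0 for 40 of 40 genes, against 50.8% of all genes tested, with a median of 0.55 and a range from 0.17 for Pcna to 1.22 for Gins2, against a median of 0.01 over all genes tested. The ratio of the group mean levels had a median of 1.47 and exceeded 2 for 3 genes, Gins2, Pold2 and Pole. Both tumor libraries lay above both UVB libraries for 39 genes, all but Pcna, against 38.4% of all genes tested and 44.3% of those at or above the lowest mean level of the 40.

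The 18 genes that passed were Orc2, Orc6, Mcm3, Mcm4, Mcm5, Gins1, Gins2, Mcm10, Pola2, Pold1, Pold2, Pole, Pole2, Rfc3, Rfc4, Rfc5, Rpa2 and Chaf1b. With the counting tools the number was lower, 8 with edgeR (8.82% of all genes passed as higher) and 10 with DESeq2 (7.64%). It was 9 after scaling by the trimmed mean of M-values (TMM), against 10.3% of all genes. After centring on erythroid markers it was 28, against 18.2% of all genes. The median log2 fold change of the 40 was 0.55 without UVB 1 and 0.55 without UVB 2. It was 0.41 without tumor 1 and 0.69 without tumor 2. Leaving out a library left its group with 1, so the spread came from the other spleen group alone. The number that passed is therefore not compared there. The direction was above 0 for all 40 genes in every one of these settings.

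**Figure D2:**
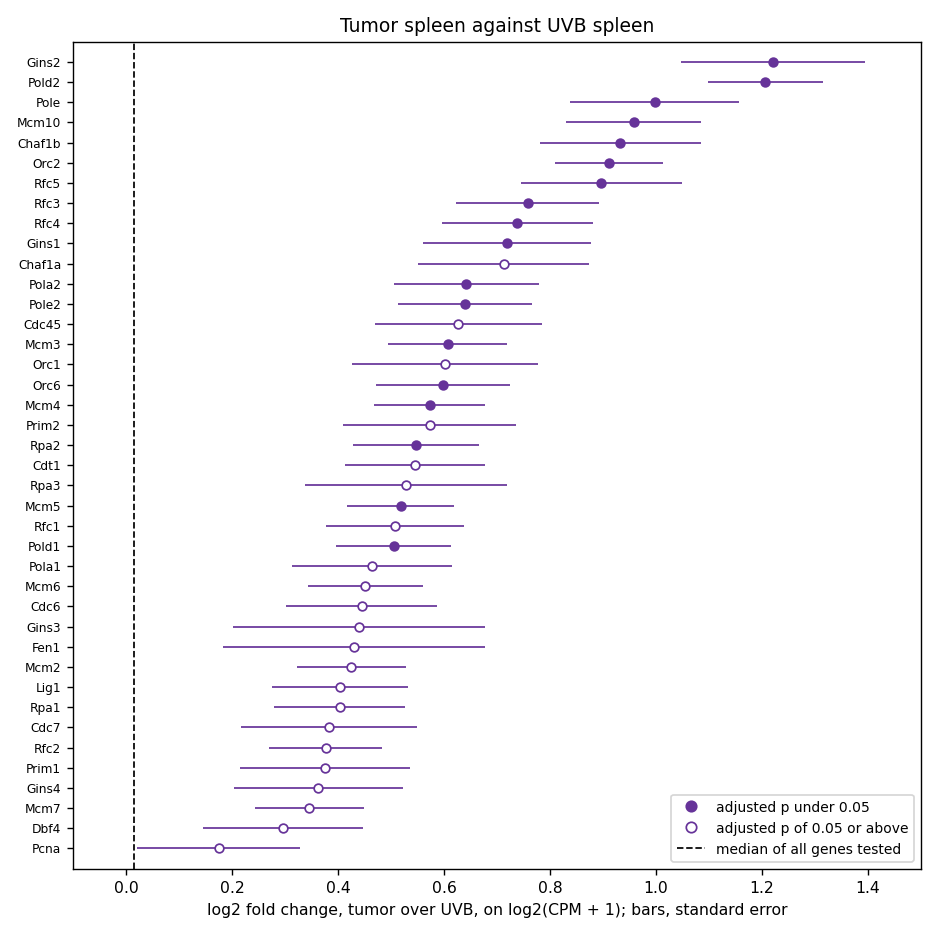
Each point is the log2 fold change of tumor over UVB on log2(CPM + 1) for 1 gene, with its standard error from the fit as the bar, and filled points have an adjusted p under 0.05. All 40 points lie right of the dashed line, which marks the median of all genes tested (0.01), with Gins2 and Pold2 at the top and Pcna at the bottom.

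The 5 genes of origin recognition and licensing had a median log2 fold change of 0.60 for tumor over UVB, and 2 of them passed. Orc2, a core subunit of the origin recognition complex (chr1:58462771-58505109, minus strand, GRCm38), had 212 CPM in tumor 1 and 204 CPM in tumor 2, against 116 CPM in UVB 1 and 105 CPM in UVB 2, with 134 CPM in the control. The tumor libraries agreed closely and lay above the control, and the UVB libraries lay below it. The log2 fold change of tumor over UVB was 0.91 ± 0.10 (SE, adjusted p = 0.0215, limma). Of Orc2's exon bases, 29.8% also lie in exons of Nif3l1, with 0% shared on the same strand. The strand setting of the counting is not given in the sources used here. Whether reads of the 2 genes were kept apart there is not known.

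Orc1, the largest subunit of that complex, had 152 and 112 CPM in tumor spleen, against 82.7 and 88.6 CPM in UVB spleen and 102 CPM in the control. The 2 groups did not overlap, but tumor 1 and tumor 2 were far apart and the log2 fold change of 0.60 ± 0.18 did not pass (SE, adjusted p = 0.0773, limma). Cdc6, the loading factor that joins the complex at the origin, had 249 and 197 CPM in tumor spleen, against 162 and 163 CPM in UVB spleen and 209.8 CPM in the control. The control lay between the 2 tumor libraries, and tumor over UVB gave a log2 fold change of 0.44 (adjusted p = 0.0914, limma). Cdt1, which brings the helicase to the origin, had 224 and 184 CPM in tumor spleen, against 143 and 135 CPM in UVB spleen and 174 CPM in the control. Its log2 fold change of 0.55 missed the threshold (adjusted p = 0.0570, limma).

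In the 6 genes of the MCM2-7 ring the median log2 fold change of tumor over UVB was 0.48, and Mcm3, Mcm4 and Mcm5 passed among the 6. Mcm5 had 364 and 329.5 CPM in tumor spleen, against 241 and 242 CPM in UVB spleen and 299 CPM in the control. Both tumor libraries were above the control and both UVB libraries below it, as they were for all 6 subunits. The log2 fold change of Mcm5 was 0.52 ± 0.10 (SE, adjusted p = 0.0402, limma).

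Levels of the subunits were set side by side per length, as CPM per 1000 bases of merged exons in GENCODE M21, a length that can exceed that of the transcript in use. The 6 summed to 469 CPM per 1000 bases in tumor 1, 419 in tumor 2, 314 in UVB 1, 308 in UVB 2 and 380 in the control. Within that sum each subunit kept a narrow share: Mcm4 held 21.4% to 22.8% over the 5 libraries and Mcm5 held 19.3% to 19.8%. Mcm7 held the smallest share, 8.13% to 9.29%. The order by share in tumor 1 was Mcm4, Mcm3, Mcm5, Mcm6, Mcm2 and Mcm7, and Mcm3 and Mcm5 stood so close that their order differed between libraries.

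**Figure D3:**
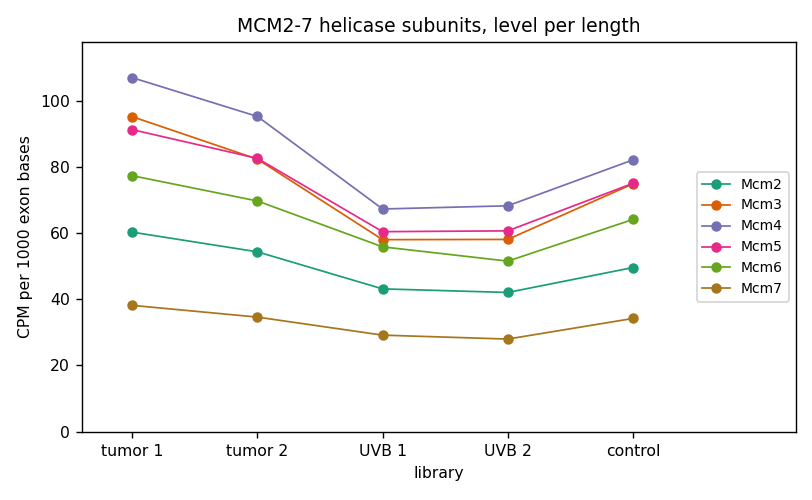
Lines join the level of each MCM2-7 subunit, in CPM per 1000 exon bases, across the 5 libraries. All 6 lines are highest in tumor 1 and lowest in the UVB libraries, with the control between the tumor and UVB libraries, and Mcm4 is the top line and Mcm7 the bottom line throughout.

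Among the 8 genes that activate the loaded helicase, 3 passed as higher in tumor over UVB, with a median log2 fold change of 0.53. Gins2, a subunit of the GINS complex (chr8:120578633-120589304, minus strand, GRCm38), had 59.1 and 47.0 CPM in tumor spleen, against 22.8 and 21.3 CPM in UVB spleen and 45.5 CPM in the control. The UVB libraries were far below the other 3, and the tumor libraries lay just above the control. The log2 fold change of 1.22 ± 0.17 was the largest of the 40 (SE, adjusted p = 0.0279, limma). Exons of Gse1 cover 67.3% of the exon bases of Gins2, with 0% shared on the same strand. As the strand setting is not given, whether reads of the 2 genes were kept apart there is not known.

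Mcm10, which helps the helicase to start and stabilises polymerase alpha (chr2:4989714-5012791, minus strand, GRCm38), had 249.8 and 209 CPM in tumor spleen, against 113 and 121 CPM in UVB spleen and 177 CPM in the control. The 3 groups were ordered tumor, control, UVB without overlap. Its log2 fold change of tumor over UVB was 0.96 ± 0.13 (SE, adjusted p = 0.0249, limma). Gins1, another GINS subunit, had 70.8 and 56.4 CPM in tumor spleen, against 37.3 and 38.8 CPM in UVB spleen and 52.8 CPM in the control, and passed with a log2 fold change of 0.72 ± 0.16 (SE, adjusted p = 0.0494, limma). Cdc45, the helicase cofactor, had 133 and 103 CPM in tumor spleen, against 73.0 and 78.0 CPM in UVB spleen and 99.9 CPM in the control. It did not pass (adjusted p = 0.0601, limma), nor did Dbf4, the regulatory subunit of the Cdc7 kinase. Dbf4 had 188 and 149 CPM in tumor spleen, against 129.9 and 143 CPM in UVB spleen and 154 CPM in the control. Its tumor 2 library lay below the control and close to UVB 2, and the adjusted p was 0.201 (limma, log2 fold change 0.30).

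Polymerase alpha-primase, the enzyme that makes the starting primers, had 1 of its 4 genes past the threshold, Pola2. Pola1, its catalytic subunit, had 290.2 and 229 CPM in tumor spleen, against 178 and 196 CPM in UVB spleen and 245 CPM in the control. The control again lay between the tumor libraries, and the log2 fold change of 0.46 did not pass (adjusted p = 0.0926, limma).

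Polymerases delta and epsilon, which copy the bulk of the lagging and leading strands, had 4 genes among the 40, which all passed, with a median log2 fold change of 0.82. Of their other subunits, read in a further list, Pole3 passed (log2 fold change 0.78, adjusted p = 0.0355, limma), while Pold3, Pold4 and Pole4 did not (adjusted p = 0.0740, 0.0981 and 0.137, limma). Pold2, the second subunit of polymerase delta (chr11:5872180-5878292, minus strand, GRCm38), had 114 and 107 CPM in tumor spleen, against 48.2 and 46.3 CPM in UVB spleen and 71.7 CPM in the control. The libraries of each group lay close together and the 3 groups were well apart. Means were 110.4 ± 4.95 CPM in tumor spleen and 47.2 ± 1.33 CPM in UVB spleen (SD, n = 2 each). Its log2 fold change of 1.21 ± 0.11 had the smallest p of the 40 genes (SE, adjusted p = 0.02, limma).

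Pole, the catalytic subunit of polymerase epsilon (chr5:110286306-110337474, plus strand, GRCm38), had 345 and 280.3 CPM in tumor spleen, against 142 and 170.1 CPM in UVB spleen and 253 CPM in the control. Tumor libraries were above the control and UVB libraries below it, with a log2 fold change of tumor over UVB of 0.998 ± 0.16 (SE, adjusted p = 0.0307, limma). Pold1, the catalytic subunit of polymerase delta, had 232 and 205 CPM in tumor spleen, against 157 and 149.7 CPM in UVB spleen and 237 CPM in the control. For this gene the control was above every spleen library. Tumor was still higher than UVB, with a log2 fold change of 0.50 ± 0.11 (SE, adjusted p = 0.0474, limma).

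The clamp and its loader made up 6 genes with a median log2 fold change of 0.62 for tumor over UVB, and 3 passed. Pcna, the sliding clamp, had 84.4 and 69.6 CPM in tumor spleen, against 73.0 and 63.1 CPM in UVB spleen and 78.5 CPM in the control. Here the groups overlapped, since tumor 2 lay below UVB 1, and the log2 fold change of 0.17 ± 0.15 did not pass (SE, adjusted p = 0.426, limma). A Pcna pseudogene, Pcna-ps2, was listed at 27.5 and 23.5 CPM in tumor spleen, against 23.2 and 22.6 CPM in UVB spleen and 22.3 CPM in the control, and how the counting divided reads between the 2 is not known. Of the 5 clamp loader genes, Rfc3, Rfc4 and Rfc5 passed and Rfc1 and Rfc2 did not. Rfc3 had 83.0 and 71.3 CPM in tumor spleen, against 43.4 and 46.8 CPM in UVB spleen and 72.7 CPM in the control, with a log2 fold change of 0.76 ± 0.13 (SE, adjusted p = 0.0349, limma). The tumor libraries of Rfc3 lay on either side of the control.

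Of the 3 subunits of RPA, the protein that coats single-stranded DNA, Rpa2 passed. It had 151 and 130.0 CPM in tumor spleen, against 97.4 and 94.0 CPM in UVB spleen and 120.0 CPM in the control, with a log2 fold change of 0.55 ± 0.12 (SE, adjusted p = 0.0475, limma). The 2 genes of Okazaki fragment joining did not pass. Lig1, the replicative DNA ligase, had 356 and 294 CPM in tumor spleen, against 241 and 248 CPM in UVB spleen and 299 CPM in the control (log2 fold change 0.40, adjusted p = 0.0895, limma). Fen1, the flap nuclease, had the fewest reads of the 40, with 14.4 and 11.8 CPM in tumor spleen, against 8.33 and 10.6 CPM in UVB spleen and 10.5 CPM in the control. UVB 2 and the control were level, and the log2 fold change of 0.43 ± 0.25 did not pass (SE, adjusted p = 0.246, limma). Exons of other genes, Tmem258 among them, cover 84.2% of the exon bases of Fen1, with 0% shared on the same strand. Whether this overlap lowered its count was not tested.

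Chromatin assembly factor 1, which places histones on new DNA, had a median log2 fold change of 0.82 over its 2 genes, and Chaf1b passed. Chaf1a, the large subunit, had 239.8 and 186 CPM in tumor spleen, against 121 and 137 CPM in UVB spleen and 181 CPM in the control. Tumor 2 and the control were close, both UVB libraries were lower, and the log2 fold change of 0.71 ± 0.16 missed the threshold (SE, adjusted p = 0.0510, limma). Over all roles, 9 of the 40 genes shared more than 10% of their exon bases with another gene on either strand, 4 of them among the 18 that passed (Orc2, Gins2, Rfc4 and Rfc5).

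The tumor libraries differed from each other for every replication gene. Tumor 1 was above tumor 2 for 40 of 40 genes, against 43.8% of all genes tested and 48.6% of those at or above the lowest mean level of the 40, with a ratio that had a median of 1.22 and ran from 1.04 to 1.56. UVB 1 was above UVB 2 for 19 of 40, against 53.2% of all genes tested, and the ratio had a median of 0.997 and ran from 0.788 to 1.16. With 1 pair of libraries a group, no test of these differences was made. Reads per exon base ran from 0.0253 to 0.469 over the 40 genes, as a mean over libraries, while the highest gene of at least 200 bases in each library reached 0.955 to 1.14. Over the 40 genes, Spearman's rho between reads per exon base and the log2 fold change of tumor over UVB was -0.19, a description across genes that share these libraries.

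UVB spleen was then compared with control bone marrow, in which organ and treatment cannot be told apart. The log2 fold change was below 0 for 40 of 40 genes, against 56.8% of all genes tested, with a median of -0.34 and a range from -1.01 to -0.14, against a median of -0.06 over all genes tested. None passed (0 of 40 with limma, edgeR and DESeq2), while 2.15% of all genes tested passed as lower, and 0.938% of those at or above the lowest mean level of the 40. At an unadjusted p under 0.05 the count was 9 with limma, against 15.2% of all genes tested, 8 with edgeR and 5 with DESeq2. Both UVB libraries lay below the control for 39 genes, all but Fen1, against 47.9% of all genes tested. By role the median was lowest for polymerases delta and epsilon (-0.61), followed by chromatin assembly (-0.58).

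Gins2 had the smallest p of the 40, with 22.8 and 21.3 CPM in UVB spleen against 45.5 CPM in the control, and a log2 fold change of -1.01 ± 0.21 (SE, adjusted p = 0.131, limma). Next came Pold1, with a log2 fold change of -0.63 (adjusted p = 0.135, limma), and Pold2, with -0.59 (adjusted p = 0.148, limma). Rfc3 had -0.68 and Mcm10 had -0.59 (adjusted p = 0.168 and 0.194, limma). At the other end, Dbf4 had -0.17 and Fen1 had -0.14. The count of genes passing as lower was 16 without tumor 1 and 18 without tumor 2, where the spread came from the UVB pair alone, against 11.2% and 11.4% of all genes in those settings. With no filter on low values it was 1 (Gins2), against 4.06% of all genes.

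Tumor spleen against control bone marrow gave smaller differences, and the same control library served in this and the preceding comparison. The log2 fold change was above 0 for 38 of 40 genes, all but Pold1 and Pcna, against 49.2% of all genes tested, with a median of 0.21 and a range from -0.12 to 0.63, against a median of -0.01 over all genes tested. None passed (0 of 40 with limma, edgeR and DESeq2), while 1.2% of all genes tested passed as higher, and 1.58% of those at or above the lowest mean level of the 40. At an unadjusted p under 0.05 limma and edgeR each gave 2 and DESeq2 gave 1, and limma gave 24.5% of all genes tested. Both tumor libraries lay above the control for 28 genes, against 39.3% of all genes tested.

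Orc2 and Pold2 had the smallest p of the 40. Orc2 had a log2 fold change of 0.63 ± 0.13 (SE, adjusted p = 0.0795, limma) and Pold2 had 0.62 ± 0.13 (SE, adjusted p = 0.0887, limma). For both genes the 2 tumor libraries were close together and well above the control. Mcm10 followed with 0.37, Mcm4 with 0.30 and Orc6 with 0.34 (adjusted p = 0.242, 0.247 and 0.265, limma). Without tumor 1 the median was 0.07 and 2 genes, Orc2 and Pold2, passed as higher, against 9.84% of all genes. Without tumor 2 the median was 0.34 and 15 passed as higher, against 12.9% of all genes.

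A set of 3 lists of cell cycle genes were read beside the 40, each a list of other genes. The first held 33 other replication genes, such as additional helicase, loader and fork protection factors. Their median log2 fold change of tumor over UVB was 0.54, and 14 passed as higher and 0 as lower, against 12.3% and 4.7% of all genes tested. Both tumor libraries lay above both UVB libraries for 30 of the 33, against 38.4% of all genes tested. Gmnn had 82.3 and 67.6 CPM in tumor spleen, against 62.1 and 63.9 CPM in UVB spleen and 72.7 CPM in the control. The control lay between the tumor libraries, and Gmnn did not pass in tumor over UVB (log2 fold change 0.241, adjusted p = 0.2497, limma). Recql4, a helicase that works with Mcm10 at origins, had 153 and 128 CPM in tumor spleen, against 46.8 and 46.8 CPM in UVB spleen and 82.7 CPM in the control. Mcm8, a helicase subunit outside the MCM2-7 ring, had 68.7 and 61.7 CPM in tumor spleen, against 22.6 and 18.3 CPM in UVB spleen and 40.3 CPM in the control. For both, tumor and UVB lay on opposite sides of the control, with log2 fold changes of 1.56 for Recql4 (adjusted p = 0.02, limma) and 1.63 for Mcm8 (adjusted p = 0.0209, limma). Pold4, the small subunit of polymerase delta, is named after its values were seen, because it had the opposite order, with 14.9 and 32.9 CPM in tumor spleen, against 51.8 and 49.8 CPM in UVB spleen and 37.7 CPM in the control, and did not pass (log2 fold change -1.16, adjusted p = 0.0981, limma).

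The second list held 25 S-phase regulators and chromatin genes, with a median of 0.30 for tumor over UVB. In it 6 passed as higher and 0 as lower, against 12.3% and 4.7% of all genes tested. Both tumor libraries lay above both UVB libraries for 14 of the 25, against 38.4% of all genes tested. Cdc25a, the phosphatase that activates the S-phase kinase, had 229 and 207 CPM in tumor spleen, against 92.6 and 93.8 CPM in UVB spleen and 141 CPM in the control. The groups stood well apart, with a log2 fold change of 1.21 (adjusted p = 0.02, limma). Ccne1, cyclin E1, which passed with a log2 fold change of 0.55 (adjusted p = 0.0477, limma), had 224 and 192 CPM in tumor spleen, against 145 and 138 CPM in UVB spleen and 150.2 CPM in the control. E2f1, an E2F factor, had 170.3 and 113 CPM in tumor spleen, against 112 and 111 CPM in UVB spleen and 134 CPM in the control, and did not pass (adjusted p = 0.322, limma). Rrm2 had 301 and 256 CPM in tumor spleen, 272 and 241 CPM in UVB spleen and 270.5 CPM in the control. It did not pass either (log2 fold change 0.12, adjusted p = 0.532, limma).

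The third list held 28 genes of mitosis, with a median of 0.11 for tumor over UVB and none that passed (0 of 28 with limma). At an unadjusted p under 0.05 the count was 4, against 42.2% of all genes tested. Mki67, the Ki-67 proliferation marker, had 1553 and 1392 CPM in tumor spleen, against 1477 and 1453 CPM in UVB spleen and 1420.3 CPM in the control, with a log2 fold change of 0.01 (adjusted p = 0.978, limma). The groups overlapped. Both tumor libraries lay above both UVB libraries for 10 of the 28 mitosis genes, a share near the 38.4% of all genes tested. Tumor 1 was above tumor 2 for all 28 mitosis genes too. In UVB over control the medians were -0.32 for the other replication genes, -0.20 for the S-phase list and -0.15 for mitosis, and in tumor over control they were 0.26, 0.06 and 0.00 in that order. No gene of the 3 lists passed in either comparison with the control by limma (0 called). At an unadjusted p under 0.05, UVB over control gave 6 of the other replication genes, 5 of the S-phase list and 0 of the mitosis list, against 15.2% of all genes tested. In that order tumor over control gave 5, 5 and 0, against 24.5% of all genes tested. The difference between the lists was not tested.

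**Figure D4:**
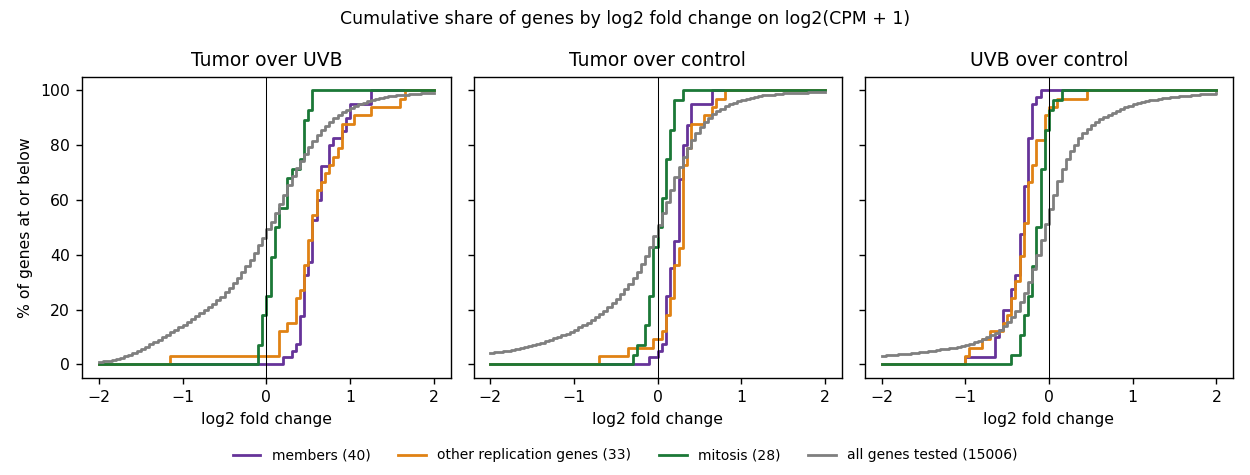
For each comparison, the curves give the % of genes at or below each log2 fold change on log2(CPM + 1), for the 40 replication genes, 33 other replication genes, 28 mitosis genes and all 15006 genes tested. In tumor over UVB both replication curves lie right of the mitosis curve (medians 0.55, 0.54 and 0.11), and in UVB over control all 3 lists lie left of 0 at their medians.

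Markers of other cells moved with these groups. Erythroid markers, a list of 20 genes found, summed to 9122 and 8021 CPM in tumor spleen, 8963 and 8702 CPM in UVB spleen and 8037 CPM in the control, with 0 of 20 passing in tumor over UVB and none at 0 reads. Tfrc encodes the CD71 used for selection. It had 802 and 716 CPM in tumor spleen, 776 and 719 CPM in UVB spleen and 665 CPM in the control. In each library the highest gene of at least 200 bases reached only 0.955 to 1.14 reads per exon base. Whether differences in highly read genes such as Tfrc were flattened was not tested. Mature B cell markers, 11 genes, summed to 627 and 1791 CPM in tumor spleen, 2489 and 2442 CPM in UVB spleen and 1475 CPM in the control, with 1 entry at 0 reads in each library. These genes had 12 tested entries. In tumor over UVB 0 of the 12 passed, and 2 had an unadjusted p under 0.05 (limma), against 42.2% of all genes tested. Macrophage markers, 13 genes with none at 0 reads, summed to 1296 and 1928 CPM in tumor spleen, 3554 and 3123 CPM in UVB spleen and 2875 CPM in the control. In tumor over UVB 6 of them passed as lower, against 4.7% of all genes tested. The sums of both lists were lowest in tumor 1, the library in which the 40 replication genes were highest, and highest in the UVB libraries, in which those genes were lowest. Their part in the replication results was not tested.

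Markers of several bone marrow cells were highest in the control. Pro-B and pre-B cell markers, 10 genes, summed to 21.5 and 69.8 CPM in tumor spleen, 48.2 and 48.3 CPM in UVB spleen and 1637 CPM in the control, with 1 to 3 of them at 0 reads in each spleen library. Neutrophil and granulocyte precursor markers, 12 genes, summed to 42.6 and 115 CPM in tumor spleen, 63.3 and 88.9 CPM in UVB spleen and 1096 CPM in the control, with 3 of them at 0 reads in each tumor library. Stroma and endothelium markers, 11 genes, summed to 89.6 and 184 CPM in tumor spleen, 235 and 233 CPM in UVB spleen and 923 CPM in the control. In each comparison with the control 7 passed as lower, against 2.15% of all genes in UVB spleen and 2.59% in tumor spleen. All 3 lists were far below the control in the 4 spleen libraries, and their part in the comparisons with the control was not tested. T cell markers, 9 genes, summed to 28.2 and 51.7 CPM in tumor spleen, 142 and 91.9 CPM in UVB spleen and 143 CPM in the control. At 0 reads were 3 of them in tumor 1, 1 in UVB 2 and 3 in the control. Only 6 of the 9 were tested, and 1 of these passed as lower in tumor over UVB, against 4.7% of all genes tested. Their part in that comparison was not tested either. Progenitor markers, 10 genes, summed to 503 and 562 CPM in tumor spleen, 490.0 and 427 CPM in UVB spleen and 908 CPM in the control. In tumor over UVB 3 of the 10 passed as higher (Kit, Gata2 and Myb) and 1 as lower (Runx1, log2 fold change -0.49, adjusted p = 0.0450, limma), and Flt3, Meis1 and Lmo2 were also below 0 without passing. Of all genes tested, 12.3% passed as higher and 4.7% as lower. Kit, the stem cell factor receptor, named after its values were seen, had 75.0 and 97.1 CPM in tumor spleen, against 38.1 and 24.3 CPM in UVB spleen and 89.3 CPM in the control, and was higher in tumor over UVB (log2 fold change 1.46, adjusted p = 0.0365, limma).

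**Figure D5:**
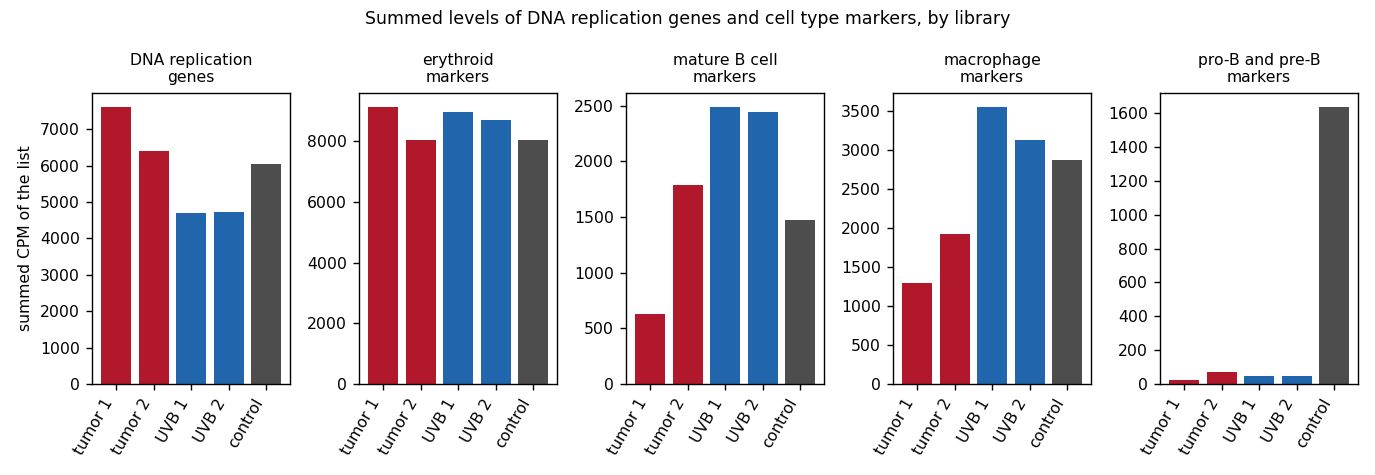
Bars give the summed CPM of the 40 replication genes and of 4 marker lists in each library, with a separate y axis from 0 for each panel. Replication genes are highest in tumor 1 and lowest in the UVB libraries, mature B cell and macrophage markers run the other way across the 4 spleen libraries, erythroid markers vary little, and pro-B and pre-B cell markers stand out in the control alone.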

How the data were processed

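RNA of CD71-selected erythroid cells was measured in 5 libraries, 2 of tumor spleen, 2 of UVB spleen and 1 of control bone marrow. STAR, HTSeq and mm10 are named, per the submitters' processing notes. Their versions, the annotation, the strand setting and duplicate removal were not given in the sources used here. The 2 tables deposited by the authors give CPM after adding 1 read to each gene, as the values show, and whole reads were recovered for 100% of values within 1e-06. The authors' deposited log2 columns, ratios of a spleen library to the control, were not used for results. The control was identical in both tables.

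Of all genes, 15006 averaged 1 CPM or more and were tested two-sided with limma 3.58.1 on log2(CPM + 1), a scale that understates the change of low genes, with the 5 libraries fitted together (2 residual degrees of freedom). For the single control library the spread of the spleen groups was assumed. Alternatives were a pseudocount of 0.25, no filter, a mean of at least 5 CPM, TMM scaling, centring on 20 erythroid markers, edgeR 4.0.16 and DESeq2 1.42.0 on recovered reads, leaving out each library, and a replicate block.

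The members and all lists were chosen with earlier results of these data known. Genes named with tests were the 5 with the smallest p in each comparison and 16 set by role. From other lists they were the smallest p and a fixed panel, Gmnn, Ccne1, E2f1, Rrm2 and Mki67. Exon lengths, positions and overlaps came from GENCODE M21 (GRCm38), in which 37693 of 39179 identifiers were found, and promoters from RefSeq on GRCm38.p6. The scripts were tested on simulated data.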

Additional observations from a re-analysis of the deposited data

Results flagged for a closer look

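For 27 of the 40 replication genes, both UVB libraries lay below the control library and both tumor libraries above it. None of the 40 passed in either comparison with the control (0 of 40 with limma, at an unadjusted p under 0.05 2 in tumor spleen and 9 in UVB spleen), and the median log2 ratio of tumor 2 to the control was 0.07. Among all 15006 genes tested 20.4% had this order. Both comparisons use the same single control library, and the difference between them was tested only as tumor against UVB, in which 18 of the 40 passed. Of the 13 genes without this order, Fen1 failed on UVB 2, and the others had tumor 2 or both tumor libraries below the control.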

How the results depend on the processing

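All 40 genes stayed above 0 in tumor over UVB under every alternative run, and the median log2 fold change ran from 0.41 to 0.69. The number that passed, 18 in the analysis reported, was 9 with TMM scaling, 28 centred on erythroid markers, 8 with edgeR and 10 with DESeq2, and ranged from 0 to 38 when 1 library was left out. Where this left a group with 1 library, that library was assumed to vary like the others. Of all genes tested, 12.3% passed as higher in the analysis reported. That was 10.3% with TMM scaling, 18.2% centred on erythroid markers, 8.82% with edgeR and 7.64% with DESeq2. Over all genes, tumor over UVB gave 2557 calls, 72.4% of them higher. The higher share was 60.2% with TMM scaling, 85.3% centred on erythroid markers and 44.6% with DESeq2, and leaving out a library gave 0 to 7888 calls. Centring moved the median of all genes to 0.14 in tumor over UVB and to -0.21 in UVB over control, where the median of the 40 became -0.49. In UVB over control 349 of all genes were called, against 101 with a pseudocount of 0.25, 1813 with no filter, 67 with a mean of at least 5 CPM, 116 with edgeR and 0 to 3056 without 1 library. Of the 40, 1 passed as lower with no filter, against 4.06% of all genes. Without 1 library the median of the 40 ran from -0.35 to -0.33. In tumor over control 569 of all genes were called, against 232 with a pseudocount of 0.25, 2303 with no filter, 70 with a mean of at least 5 CPM, 370 centred, 192 with edgeR and 0 to 5383 without 1 library. Of the 40, 0 to 15 passed without 1 library. The cause of these shifts was not tested.

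With the replicate number as a block in the 4 spleen libraries, 0 of the 40 and 0 of all genes passed in tumor over UVB (28 of the 40 at an unadjusted p under 0.05, limma). The labels do not say that the numbers pair samples, and deviations of same-numbered libraries had a correlation of -0.11. A crossed pairing, chosen after seeing the data, gave 17 of the 40 as higher, against 11.8% of all genes. Counted in either direction, 3049 of all genes passed. Of the 40 genes, 12 changed sign in a comparison with the control, each with 1 library left out. They were Fen1 without UVB 1 (UVB over control) and, in tumor over control, Pcna without tumor 2 and 10 genes without tumor 1 (Cdc6, Cdc7, Dbf4, Gins3, Gins4, Lig1, Pola1, Prim1, Rfc3 and Rpa3). Over the left-out libraries, Fen1 ran from -0.30 to 0.013 in UVB over control. In tumor over control Cdc6 ran from -0.089 to 0.25, Dbf4 ran from -0.044 to 0.29, Pola1 ran from -0.10 to 0.24, Rfc3 ran from -0.029 to 0.19, Lig1 ran from -0.024 to 0.25 and Pcna ran from -0.17 to 0.10. Counted over each combination of gene, comparison and alternative setting, genes named with tests otherwise kept their side of the threshold in 611. They gained the call in 54 combinations and lost it in 48. Fen1 had the fewest reads, 41 in its lowest library, and whether its exon overlap lowered that count was not tested.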
